A study of Mus musculus with 47 samples.

Results

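The genes described here are 10 genes of skeletal muscle (Acta1, Ckm, Mylpf, Tnnt3, Tnni2, Tnnc2, Atp2a1, Ryr1, Mybph and Mb), followed in mouse lung after a ragweed allergen challenge. They are 10 of the 16366 genes named on the arrays, and every probe set annotated to them in any of the 6 array tables was taken, whatever its value. The 10 genes themselves were chosen with earlier results of these data known. That gave 32 probe set entries of 74521, which are 22 distinct probe sets, because the repeated ones are on both versions of the A array. First-version B and version 2 B hold no probe set of these genes. Of the 32 entries, 24 were tested; these were above a floor for dim signal on at least 2 arrays and, on first-version A, were also on version 2 A. Values under the floor were raised to it before the fit, and the counts of groups that do not overlap were made on the raised values.

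Total RNA from whole lung was hybridized to Affymetrix murine arrays, which read each gene through probe sets and give 1 intensity per probe set. All 4 groups followed 1 schedule, with sensitization on days 0 and 3 and intratracheal challenge on days 10 and 17. The ragweed groups received ragweed pollen protein, with alum at sensitization, and the PBS groups received phosphate-buffered saline at each step; the labels name alum for the ragweed groups alone. The animals were killed 24 h or 72 h later, so the groups are named by agent and time (PBS 24 h, ragweed 24 h, PBS 72 h and ragweed 72 h) and each has 2 samples, coded 1a and 1b. Strain, sex and age are not in the labels. Whether 1a and 1b are different animals is not stated, so every p-value reflects the spread between the 2 samples of a group only, and that spread could be technical.

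Skeletal muscle contracts when calcium released through Ryr1 binds troponin on the thin filament and lets myosin pull on actin, after which the pump made from Atp2a1 returns the calcium to its store. Fast fibres use their own isoforms of troponin, myosin light chain and calcium pump, while creatine kinase and myoglobin supply energy and hold oxygen. Lung parenchyma has no skeletal muscle fibres, whereas the diaphragm, chest wall and oesophagus beside it do, and the heart, whose muscle in mice reaches into the pulmonary veins, shares part of this programme. Whole-lung RNA is a bulk measurement, so fewer cells of a type and less RNA per cell cannot be told apart.

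The genes of this programme are known for promoters that carry E boxes, the sites of MyoD-family factors, and CArG boxes, the sites of serum response factor. The 250 bases before the start of transcription are printed for Acta1, the gene that passed the tests below, and for the 3 other genes with a single listed start in which the same motif lies well inside the window. They come from RefSeq (GRCm38.p6) and are written 5′ to 3′ on the gene's strand, with the matched motif in capitals. Acta1 lies on the minus strand (chr8:123894776-123895025), as does Atp2a1 (chr7:126463074-126463323), while Mylpf (chr7:127211358-127211607) and Mybph (chr1:134193198-134193447) lie on the plus strand.

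Acta1: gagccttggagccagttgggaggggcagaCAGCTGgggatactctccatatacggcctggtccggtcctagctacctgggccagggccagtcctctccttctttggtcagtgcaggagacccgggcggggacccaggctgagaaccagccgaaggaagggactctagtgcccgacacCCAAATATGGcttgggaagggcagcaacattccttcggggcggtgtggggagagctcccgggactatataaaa
Mylpf: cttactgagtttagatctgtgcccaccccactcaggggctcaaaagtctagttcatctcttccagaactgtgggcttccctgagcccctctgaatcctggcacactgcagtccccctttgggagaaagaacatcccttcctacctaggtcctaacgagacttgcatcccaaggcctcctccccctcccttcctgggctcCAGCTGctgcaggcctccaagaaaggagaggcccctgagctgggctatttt
Atp2a1: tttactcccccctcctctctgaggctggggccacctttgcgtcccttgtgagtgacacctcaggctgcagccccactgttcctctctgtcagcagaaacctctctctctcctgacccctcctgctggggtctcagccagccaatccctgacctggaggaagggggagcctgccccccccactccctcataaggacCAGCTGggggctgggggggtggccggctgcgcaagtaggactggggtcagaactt
Mybph: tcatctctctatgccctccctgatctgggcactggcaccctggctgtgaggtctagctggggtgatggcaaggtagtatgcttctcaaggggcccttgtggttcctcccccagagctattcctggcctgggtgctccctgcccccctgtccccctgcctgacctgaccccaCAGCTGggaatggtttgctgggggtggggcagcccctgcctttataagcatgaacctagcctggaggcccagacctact

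The motif in capitals in all 4 is CAGCTG, an E box that reads the same on both strands. It lies 221 to 216 bases before the start in Acta1, 51 to 46 in Mylpf, 55 to 50 in Atp2a1 and 79 to 74 in Mybph. Acta1 also holds CCAAATATGG, a CArG box, 73 to 64 bases before its start. Over all 10 starts listed for 8 of the genes, 7 starts held CAGCTG, against 13.0% of all 32851 promoter windows of the same length. The genes with a match were Acta1, Atp2a1, Ckm, Mb, Mybph and Mylpf, so 6 of 8, and for Mb it stood in 2 of 3 listed starts whose windows overlap. The window of Tnnc2 held the related E box CACCTG (searched on both strands, in 17.2% of all windows), and the window of Ryr1 held neither. A CArG box stood in 1 of the 10 windows and in 1.47% of all, and no MEF2 site was found in the 10, against 2.92% of all. Tnni2 and Tnnt3 are named only. A match describes letters in the window and was not tied to any value below.

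Averaged over these genes, the PBS 24 h lungs were lowest and the PBS 72 h lungs highest, and both ragweed groups lay between. Of the 9 genes tested on the main arrays (first-version A and version 2 C), 6 had their highest group mean in PBS 72 h, as did 24.5% of all 12840 genes tested; for Tnni2, 1 of the 6, the margin was near 0 at the floor. For 7 of the 9 the lowest mean was PBS 24 h (20.7% of all genes), and for 5 both held (6.33%). Because the genes and lists were chosen with earlier results known, such counts, here and below, describe them and are not a test. Acta1, skeletal alpha-actin, was the one gene whose differences passed against PBS of the same time or between the PBS groups, and Mb passed only when ragweed 72 h was set against PBS 24 h. The values below are normalized intensities, and differences are in log2 units with the standard error of the limma fit. Adjusted p is the Benjamini-Hochberg value over the 25250 probe sets tested on first-version A, version 2 B and version 2 C. For version 2 A values it is over the 26995 tested on version 2 A, first-version B and first-version C.

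**Figure D1:**
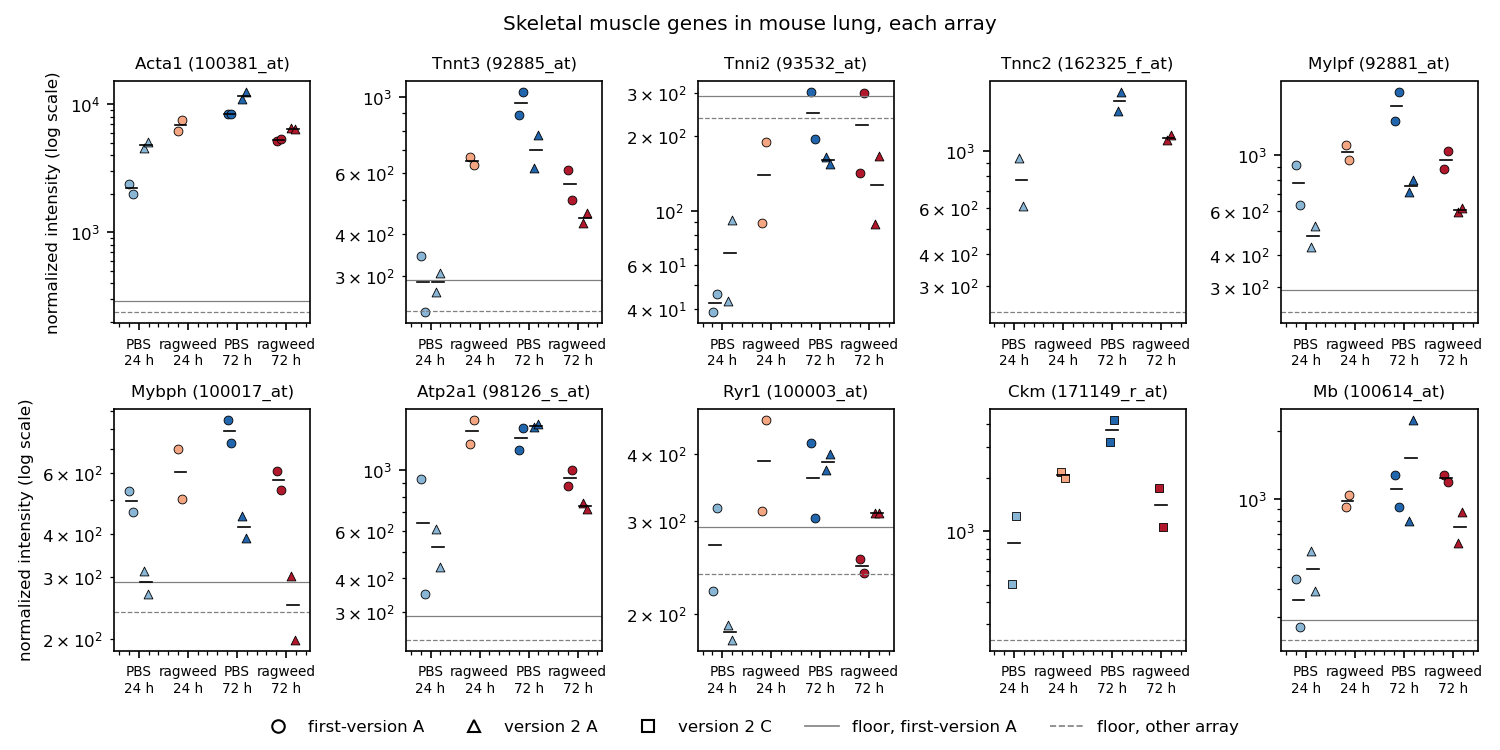
Normalized intensity on a log axis for 1 probe set of each of the 10 genes in the 4 groups. Each point is 1 array, its shape gives the array version, the short bar is the group mean and the grey lines are the floors for dim signal. Acta1 lies between 2003 and 2406 in PBS 24 h and at 8395 in PBS 72 h on first-version A, and the same order appears for most of the other genes.

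Acta1 forms the thin filament of skeletal muscle. On first-version A its intensity was 2406 and 2003 in the PBS 24 h samples, 6182 and 7559 in ragweed 24 h, 8395 and 8395 in PBS 72 h, and 5191 and 5323 in ragweed 72 h. The equal PBS 72 h values come from quantile normalization, which gives equal ranks equal values. No group overlapped another.

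Against PBS of the same time, Acta1 rose with ragweed at 24 h, by 1.64 ± 0.13 (3.11-fold, adjusted p = 0.00127, limma). At 72 h it was lower with ragweed by 0.68 ± 0.13 on the log2 scale and did not pass (adjusted p = 0.0861). Among the PBS samples it rose from 24 h to 72 h by 1.94 ± 0.13 (3.82-fold, adjusted p = 0.0013). Between the ragweed groups the 72 h samples were lower by 0.38 ± 0.13, which did not pass (adjusted p = 0.325). The PBS 24 h and PBS 72 h samples enter several of these comparisons, so the comparisons are not independent of each other.

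The ragweed effect on Acta1 differed between the times, with a log2 difference of -2.31 ± 0.18 between the 72 h and the 24 h effect (adjusted p = 0.00556). Set against the PBS samples of the other time, ragweed 24 h was 0.30 below PBS 72 h (adjusted p = 0.446), and ragweed 72 h was 1.26 above PBS 24 h (adjusted p = 0.00295). The call at 24 h thus rests on PBS 24 h as the reference: against the PBS samples of both times it was 0.67 ± 0.11 (adjusted p = 0.0654). Without PBS 72 h sample 1b, the PBS rise was 1.94 with an adjusted p of 0.05, which did not pass. Without any 1 of the 72 h samples the difference between the effects did not pass either (adjusted p from 0.0781 to 0.0988).

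Version 2 A was hybridized for every group but ragweed 24 h. There Acta1 was 4594 and 5078 in PBS 24 h, 11030 and 12392 in PBS 72 h, and 6486 and 6385 in ragweed 72 h. The 3 groups again did not overlap and stood in the same order. The PBS rise was 1.28 ± 0.12 (2.42-fold, adjusted p = 0.0193), and ragweed at 72 h was lower by 0.86 ± 0.12 (adjusted p = 0.058). On that array the ratio of the 3′ to the 5′ actin control, a sign of RNA or target length, was 0.54 and 0.44 in PBS 24 h, 0.19 and 0.20 in PBS 72 h, and 0.80 and 0.58 in ragweed 72 h. On first-version A it ran from 0.80 to 0.97 over the 8 samples. The part of this ratio in the version 2 A values was not tested.

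The 3 fast troponin subunits make the calcium switch of the thin filament. Tnnt3, which binds tropomyosin, was 343 and 236 in PBS 24 h, 671 and 633 in ragweed 24 h, 888 and 1034 in PBS 72 h, and 613 and 501 in ragweed 72 h on first-version A. No group overlapped another, in the same order as for Acta1. The PBS difference over time was 1.60 ± 0.26 (adjusted p = 0.062), ragweed was 1.04 ± 0.26 higher at 24 h (adjusted p = 0.255) and -0.79 ± 0.26 at 72 h (adjusted p = 0.349), and none passed.

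On version 2 A the same Tnnt3 probe set (92885_at) read 271 and 307 in PBS 24 h, 622 and 779 in PBS 72 h, and 429 and 459 in ragweed 72 h. The order was the same and the PBS difference was 1.27 ± 0.23 (adjusted p = 0.184). A second Tnnt3 probe set on first-version C (140407_at) ranged from 137 to 558, was above the floor on 3 of 8 arrays, and overlapped in every comparison once dim values were raised to the floor. Its version 2 C counterpart (167336_at) was below the floor on all 8 arrays.

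Tnni2, the inhibitory subunit, was dim. On first-version A it read 39 and 46 in PBS 24 h, 89 and 190 in ragweed 24 h, 301 and 196 in PBS 72 h, and 143 and 301 in ragweed 72 h, with 2 of 8 arrays above the floor of 291.6. The PBS 24 h samples were the dimmest, but with values set to the floor the fitted differences were near 0 and carry no information on direction. All 6 arrays of version 2 A lay below the floor, from 43 to 167.

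Tnnc2, the calcium-binding subunit, could be read only through a version 2 A probe set (162325_f_at). It was 935 and 612 in PBS 24 h, 1427 and 1680 in PBS 72 h, and 1097 and 1152 in ragweed 72 h. The groups did not overlap, and PBS 72 h was again highest. PBS 72 h exceeded PBS 24 h by 1.03 ± 0.23 (adjusted p = 0.255), and ragweed at 72 h was -0.46 ± 0.23 relative to PBS (adjusted p = 0.568). The other Tnnc2 probe set (93259_at) was below the floor on all 8 first-version A and all 6 version 2 A arrays.

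Mylpf, the fast regulatory myosin light chain of the thick filament, read 911 and 636 in PBS 24 h, 1100 and 956 in ragweed 24 h, 1367 and 1778 in PBS 72 h, and 886 and 1037 in ragweed 72 h (92881_at, first-version A). PBS 72 h stood above all other samples, and ragweed 72 h overlapped both 24 h groups. PBS 72 h was 1.03 ± 0.25 above PBS 24 h (adjusted p = 0.243), and ragweed was -0.70 ± 0.25 at 72 h (adjusted p = 0.389) and 0.43 ± 0.25 at 24 h (adjusted p = 0.713).

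The Mylpf values on version 2 A were 433 and 525 in PBS 24 h, 716 and 800 in PBS 72 h, and 596 and 618 in ragweed 72 h, in the same order and without overlap. A version 2 C probe set (170347_f_at) was noisier, at 472 and 90 in PBS 24 h, 1525 and 1194 in ragweed 24 h, 786 and 1191 in PBS 72 h, and 791 and 188 in ragweed 72 h. Here ragweed 24 h was highest, 1.99 ± 0.67 above PBS 24 h (adjusted p = 0.409). Its first-version C counterpart (131726_f_at) lay between 2401 and 2897 in 7 of 8 samples, with ragweed 72 h sample 1b at 1531. Probe set 99733_f_at, found on first-version A alone and not tested, read from 150 to 745, a range that the ragweed 72 h pair alone spanned, and 162101_f_at was below the floor on all 6 version 2 A arrays. The Mylpf probe sets thus did not share 1 order of the groups.

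Mybph, a myosin-binding protein related to myosin-binding protein C, read 530 and 462 in PBS 24 h, 703 and 504 in ragweed 24 h, 849 and 730 in PBS 72 h, and 605 and 534 in ragweed 72 h. Both PBS 72 h samples were above every other sample, and the ragweed groups overlapped each other. PBS 72 h exceeded PBS 24 h by 0.67 ± 0.27 (adjusted p = 0.567). Version 2 A gave 314 and 268, 450 and 388, and 302 and 198 in PBS 24 h, PBS 72 h and ragweed 72 h, a PBS difference of 0.53 ± 0.21 (adjusted p = 0.574). On both versions PBS 72 h was highest, and on version 2 A PBS 24 h and ragweed 72 h overlapped.

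Atp2a1 encodes the fast calcium pump of the sarcoplasmic reticulum. It read 927 and 351 in PBS 24 h, 1255 and 1530 in ragweed 24 h, 1190 and 1434 in PBS 72 h, and 874 and 1005 in ragweed 72 h (98126_s_at, first-version A). The PBS 24 h samples lay far apart, and ragweed 24 h and PBS 72 h overlapped at the top. The differences were 1.28 ± 0.40 for ragweed at 24 h (adjusted p = 0.376), 1.20 ± 0.40 for PBS over time (adjusted p = 0.456) and -0.48 ± 0.40 for ragweed at 72 h (adjusted p = 0.77). The first of these was 1.98 without PBS 24 h sample 1a and 0.58 without 1b, and the PBS difference was 1.89 and 0.50.

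Version 2 A gave tighter Atp2a1 pairs, at 609 and 440 in PBS 24 h, 1443 and 1476 in PBS 72 h, and 756 and 724 in ragweed 72 h. The groups did not overlap. The PBS 72 h mean was 1.50 ± 0.21 above PBS 24 h (2.82-fold, adjusted p = 0.0904), and ragweed at 72 h was -0.98 ± 0.21 (adjusted p = 0.198). A second version 2 A probe set (162223_f_at) was 174 and 215, 433 and 577, and 254 and 39 in the same 3 groups, with PBS 72 h alone on both arrays well over the floor of 237.8. Both PBS 24 h values were under that floor, so PBS 72 h was at least 2.10-fold higher (adjusted p = 0.204).

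Ryr1, the calcium release channel, was near the floor. On first-version A it read 222 and 317 in PBS 24 h, 312 and 463 in ragweed 24 h, 419 and 303 in PBS 72 h, and 254 and 239 in ragweed 72 h, so the first 3 groups overlapped. The ragweed 72 h samples were under the floor, and PBS 72 h was at least 1.22-fold higher than they were (adjusted p = 0.75). On version 2 A it read 191 and 179, 373 and 400, and 310 and 309 in PBS 24 h, PBS 72 h and ragweed 72 h, 3 groups that did not overlap. Because PBS 24 h was under the floor, PBS 72 h was at least 1.62-fold higher (adjusted p = 0.275).

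Ckm, muscle creatine kinase, which regenerates ATP from phosphocreatine, had probe sets that disagreed. On version 2 C, 171149_r_at read 502 and 1219 in PBS 24 h, 2151 and 2003 in ragweed 24 h, 3195 and 4223 in PBS 72 h, and 1746 and 1060 in ragweed 72 h. PBS 72 h was highest, 2.23 ± 0.44 above PBS 24 h (4.70-fold, adjusted p = 0.133), and ragweed was 1.41 ± 0.44 at 24 h (adjusted p = 0.369) and -1.43 ± 0.44 at 72 h (adjusted p = 0.307). Without PBS 24 h sample 1a the 24 h value was 0.77, and without 1b it was 2.05. The actin ratio on version 2 C was 1.08 and 0.99 in PBS 24 h, 1.60 and 1.43 in ragweed 24 h, 0.87 and 0.86 in PBS 72 h, and 1.11 and 1.39 in ragweed 72 h, and its part in the Ckm values was not tested.

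The other version 2 C probe set (170247_r_at) ran the opposite way, at 1562 and 1943 in PBS 24 h, 507 and 362 in ragweed 24 h, 846 and 826 in PBS 72 h, and 953 and 1807 in ragweed 72 h. Its differences were -2.02 ± 0.43 for ragweed at 24 h (adjusted p = 0.172), -1.06 ± 0.43 for PBS over time (adjusted p = 0.565) and 0.65 ± 0.43 for ragweed at 72 h (adjusted p = 0.711). Ckm is represented in the counts by 171149_r_at, chosen as the brighter probe set, and with the other one its signs would turn.

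On version 2 A, Ckm probe set 161569_f_at read 253 and 320 in PBS 24 h, 528 and 478 in PBS 72 h, and 256 and 277 in ragweed 72 h. PBS 72 h was 0.82 ± 0.20 above PBS 24 h (adjusted p = 0.303), and ragweed 72 h was -0.92 ± 0.20 relative to PBS 72 h (adjusted p = 0.205). The remaining probe set (160175_at) read from 55 to 462 and was above the floor on 2 of 6 arrays, and with dim values raised to the floor all 3 groups overlapped. So 2 of the 4 Ckm probe sets had PBS 72 h above the other groups without overlap.

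Mb encodes myoglobin, the oxygen store of oxidative muscle and heart. On first-version A it read 442 and 272 in PBS 24 h, 922 and 1042 in ragweed 24 h, 1283 and 925 in PBS 72 h, and 1275 and 1195 in ragweed 72 h (100614_at). The PBS 24 h samples stood below the other 6, and ragweed 72 h lay within the range of PBS 72 h. Ragweed was 1.45 ± 0.28 higher at 24 h (2.73-fold, adjusted p = 0.136) and 0.18 ± 0.28 higher at 72 h (adjusted p = 0.896), and PBS 72 h was 1.60 ± 0.28 above PBS 24 h (adjusted p = 0.0948). Set against PBS 24 h, ragweed 72 h was 1.78 ± 0.28 higher, which passed (adjusted p = 0.0303).

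The same Mb probe set on version 2 A read 589 and 393 in PBS 24 h, 799 and 2235 in PBS 72 h, and 636 and 874 in ragweed 72 h. PBS 72 h sample 1b stood far above the rest, and the ragweed difference at 72 h was -0.84 ± 0.48 (adjusted p = 0.638), opposite in sign to first-version A. A second Mb probe set (100615_at) was below the floor on every array of both versions.

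**Figure D2:**
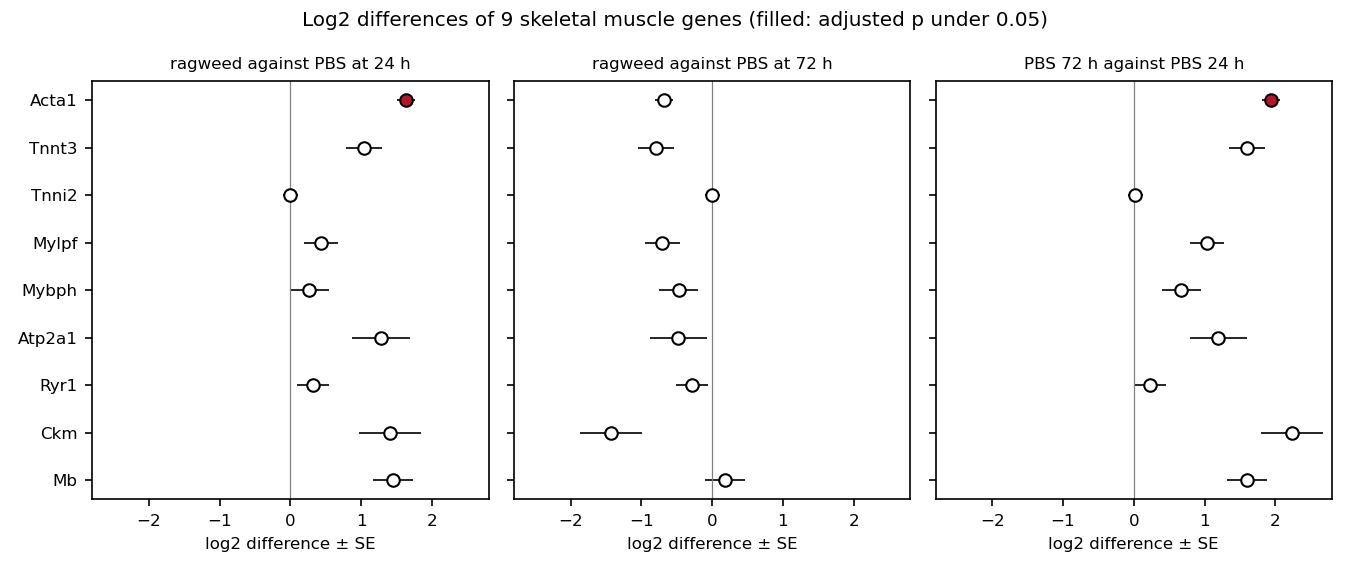
Log2 difference with its standard error for the 9 genes tested on the main arrays, in 3 comparisons; a filled point passed at an adjusted p-value under 0.05. Acta1 is filled for ragweed at 24 h (1.64) and for PBS over time (1.94), and no gene is filled for ragweed at 72 h.

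Counted over the 9 genes, ragweed at 24 h called 1 higher, Acta1, where 0.327% of all genes were called higher. The 2 ragweed samples lay above both PBS samples for 6 of the 9 (17.2% of all genes): Acta1, Tnnt3, Mylpf, Atp2a1, Ckm and Mb. The fitted difference was above 0 for 8 (47.6% of all genes), with a median of 1.04 against -0.00 over all genes.

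At 72 h no gene of the 9 was called in either direction by limma (0.374% of all genes were called higher and 0.273% lower). Both ragweed samples lay below both PBS samples for 7 (18.6% of all genes), which were Acta1, Tnnt3, Mylpf, Mybph, Atp2a1, Ryr1 and Ckm. The median difference was -0.48 against 0.00 over all genes. Over 25250 probe sets, 2431 had an unadjusted p under 0.05 in this comparison, 84 were called higher and 49 lower.

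Between the PBS groups 1 of the 9 was called higher at 72 h, Acta1 (0.265% of all genes). PBS 72 h lay above PBS 24 h without overlap for 7 (17.8%), all but Ryr1 and Tnni2, and the median difference was 1.20. Tnni2 is not in the 7 because 3 of its 4 PBS values lay under the floor, although its 2 PBS 72 h values were above both PBS 24 h values as printed. Between the ragweed groups none of the 9 was called (0.21% of all genes higher and 0.0857% lower). Ragweed 72 h was below ragweed 24 h without overlap for 5 (19.9%) and above it for Mb alone (18.1%), with a median of -0.23. The difference between the 72 h and 24 h ragweed effects was called for 1 gene, Acta1 (0.0312% of all genes called lower). It was below 0 for all 9 (50.1% of all genes), though for Tnni2, at the floor, it was only -0.00028. The median over the 9 was -1.27.

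With the PBS samples of the other time as the reference, the picture turned. Ragweed 24 h against PBS 72 h gave no call by limma (0.319% of all genes were called higher and 0.226% lower), 5 of 9 genes lower without overlap (18.9% of all genes) and a median of -0.30. Ragweed 72 h against PBS 24 h called 2 higher, Acta1 and Mb (0.724% of all genes), with 4 of 9 higher without overlap (18.4%) and a median of 0.72.

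On the other array version, which shares the samples and is no new replicate of them, 9 of the 10 genes were tested, all but Tnni2. PBS 72 h lay above PBS 24 h without overlap in 9 of 9 (19.5% of all 12178 genes tested there), with a median of 1.03 and 1 call, Acta1 (0.131% of all genes). Ragweed 72 h lay below PBS 72 h in 8 of 9 (21.5% of all genes), all but Mb, with a median of -0.65 and no call by limma (0.238% of all genes were called higher and 0.0985% lower). Ryr1, which overlapped between the PBS groups on first-version A, did not overlap here.

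**Figure D3:**
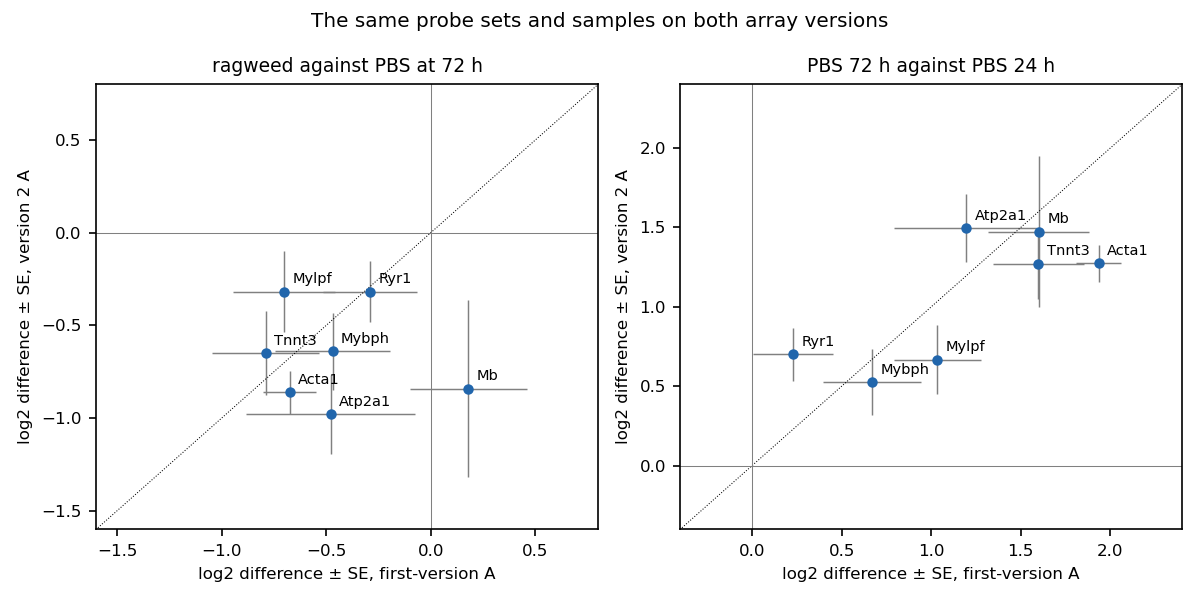
Log2 difference with its standard error of the same probe set on first-version A (x axis) and version 2 A (y axis) for the 7 genes tested on both; the dotted line marks equal values. For PBS over time all 7 lie above 0 on both axes, and for ragweed at 72 h all but Mb lie below 0 on both.

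The 9 genes varied together across the 8 samples to different degrees. The mean of their centred log2 values was -0.57 and -0.77 in PBS 24 h, 0.17 and 0.22 in ragweed 24 h, 0.49 and 0.50 in PBS 72 h, and 0.02 and -0.06 in ragweed 72 h. The 4 pairs did not overlap, with PBS 24 h lowest and PBS 72 h highest. Against the mean of the other 8, Pearson's r over the 8 samples was 0.98 for Acta1 and Tnnt3, 0.82 for Mylpf, 0.78 for Mb, 0.77 for Atp2a1, 0.76 for Mybph and 0.75 for Ckm. It was 0.37 for Ryr1 and 0.28 for Tnni2, the 2 genes near the floor. These are descriptions over arrays of which most points share 1 hybridization and 1 normalization.

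Outside the 10 genes, the profile most like theirs was that of Myl1, the fast essential myosin light chain (r = 0.99 over 8 samples). It read 821 and 715 in PBS 24 h, 1246 and 1406 in ragweed 24 h, 1633 and 1714 in PBS 72 h, and 1241 and 1032 in ragweed 72 h. The next were Rpp25l and Ech1 (0.97), Fam13c and Lce1h (0.95), and Epsti1, Usp25 and Mgat3 (0.94). Of 12831 other genes, 23 had an r above 0.9.

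Of 64 other skeletal muscle genes listed, 56 were on the arrays and 44 were tested, and none was called in the 3 comparisons of ragweed at 24 h, ragweed at 72 h and PBS over time. PBS 72 h was above PBS 24 h for 32 and below it for 11, with 18 higher and 1 lower without overlap (17.8% and 19.4% of all genes) and a median of 0.26. Those with the largest PBS difference were Smpx, a small protein of the muscle cytoskeleton (1.49, adjusted p = 0.34), Myog, a myogenic transcription factor (1.31, adjusted p = 0.443), Mybpc1, a slow myosin-binding protein C (1.18, adjusted p = 0.424), and Myl1 (1.13 ± 0.18, adjusted p = 0.0648). With ragweed at 24 h, 28 were higher and 15 lower (median 0.17), and at 72 h 13 were higher and 31 lower (median -0.20). On the other array version 47 of the list were tested for ragweed at 72 h, and 1 was called lower (0.0985% of all genes).

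The list of 16 defining skeletal muscle markers with little heart expression, 8 of them among the 10 genes, had 13 tested, and Myh2, Myh4 and Tnnc2 were too dim on the main arrays. Its summed intensity was 12830 and 9527 in PBS 24 h, 17880 and 19370 in ragweed 24 h, 21700 and 20890 in PBS 72 h, and 16510 and 14790 in ragweed 72 h. Without Acta1 the sum in PBS 24 h stood at 10420 and 7524 and ragweed 72 h at 11320 and 9466, which overlap, and PBS 72 h at 13310 and 12490 remained highest. Among its genes outside the 10, Myh1, a fast myosin heavy chain, was 1.02 ± 0.24 higher in PBS 72 h than in PBS 24 h (adjusted p = 0.24), while Pvalb, the calcium buffer of fast fibres, was at -0.10 ± 0.30 and overlapped.

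By summed intensity, markers of heart and squamous epithelium were also highest in PBS 72 h, and those of fat in both 72 h groups. The summed intensity of 16 heart muscle markers was 18360 and 20670 in PBS 24 h, 16230 and 17990 in ragweed 24 h, 28940 and 30770 in PBS 72 h, and 20040 and 19760 in ragweed 72 h. From PBS 24 h to PBS 72 h, 14 of the 16 were higher, 13 without overlap (17.8% of all genes), with a median of 0.84 and no call. Myoz2 (1.61, adjusted p = 0.0818), Pln (1.40, adjusted p = 0.511), Myl3 (1.27, adjusted p = 0.236) and Myh6 (1.15, adjusted p = 0.204) had the largest differences; for Myoz2 and Pln both PBS 24 h samples were under the floor, so those differences are lower bounds. With ragweed at 72 h, 13 of the 16 were lower, 12 without overlap (18.6% of all genes), and 2 were called, Nppa and Myl7 (0.273% of all genes). At 24 h the heart markers stood at a median of -0.20, with 11 of 16 lower. The median was 1.04 over the 9 genes and 0.17 over the 44 other skeletal muscle genes. The difference between these lists was not tested.

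Squamous epithelium markers, 14 tested, had summed intensities from 45080 to 63120 in the PBS 24 h and both ragweed groups and of 90670 and 99160 in PBS 72 h. From PBS 24 h to PBS 72 h, 8 of the 14 were higher, all without overlap (17.8% of all genes). The other 6 were lower, none without overlap, and the median was 0.75. Krt4 alone went from 8121 and 6703 in PBS 24 h to 24103 and 25342 in PBS 72 h. The 4 called higher in PBS 72 h (0.265% of all genes) were Krt4, Krt13, Krtdap and Lce3a, genes of layered epithelium (Krt4 1.74 ± 0.13, adjusted p = 0.00315). These 4 and Sbsn were called lower with ragweed at 72 h, and Krt4 was also called for the difference between the effects (-1.75 ± 0.19, adjusted p = 0.035). Fat markers, 9 tested, ran from 13440 to 17320 in both 24 h groups and from 21740 to 24910 in both 72 h groups. Between the PBS groups 1 was called higher at 72 h, Ucp1 of brown fat (1.85 ± 0.24, adjusted p = 0.0246), against 0.265% of all genes. Its PBS 24 h samples, at 43 and 132, were under the floor, so that difference is a lower bound. Smooth muscle markers, 11 tested, were at 24640 and 21870 in PBS 24 h and 22190 and 21960 in PBS 72 h, with a median difference of -0.05. On the other array version 12 were tested, at 26800 and 25790 in PBS 24 h and 31170 and 29320 in PBS 72 h. There 9 were higher in PBS 72 h and 3 lower (median 0.24), and none was called. Lung markers, 13 of 14 tested and bright in every sample (sums from 177800 to 220000), had a median of 0.09. On the other array version 14 were tested between the PBS groups, with a median of -0.16 and none called. On the main arrays 3 airway secretory genes of that list were called higher in PBS 72 h: Scgb1a1, Cyp2f2 and Scgb3a2. Scgb1a1 (1.27, adjusted p = 0.00404) and Cyp2f2 (0.65, adjusted p = 0.0367) were also called higher with ragweed at 24 h. Outside PBS 24 h every Scgb1a1 value was 71315 or 80239, since quantile normalization gives equal ranks equal values, so its PBS difference is also 1.27. Of the 13 lung markers, 5 were higher and 8 lower with ragweed at 24 h (median -0.24). Cyp2f2 was called lower at 72 h (-0.81, adjusted p = 0.00894) and for the difference between the effects (-1.46 ± 0.13, adjusted p = 0.00868). Of 3 thyroid and thymus markers tested, all 3 were higher in PBS 72 h (median 0.36) and none was called. The part of heart, squamous, fat or airway RNA in the values of the 10 genes was not tested.

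**Figure D4:**
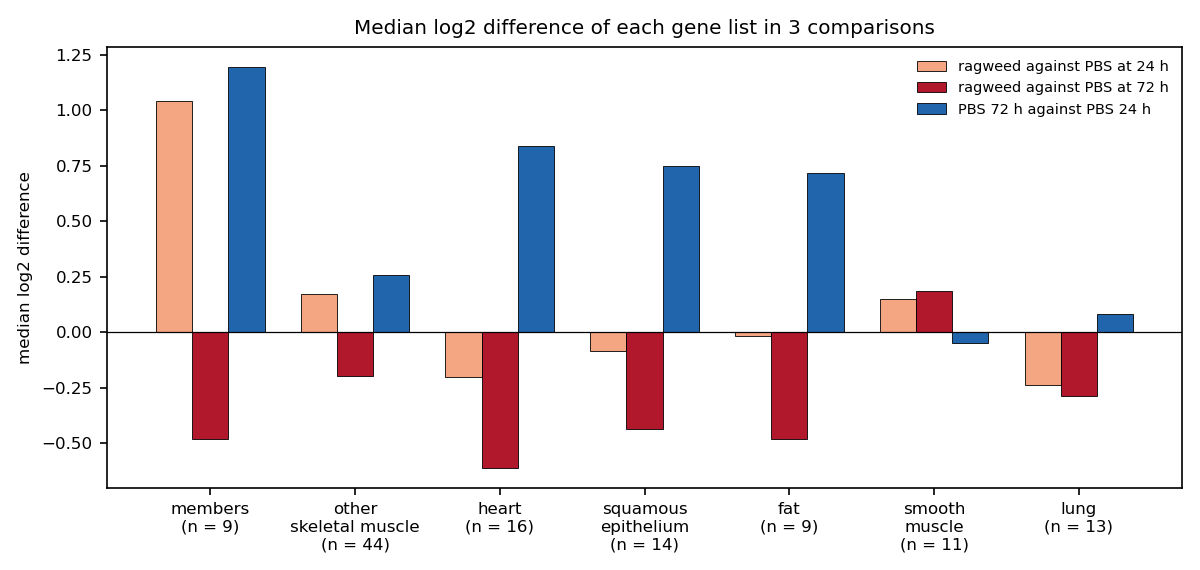
Median log2 difference over the tested genes of each list in 3 comparisons, with the number of genes under each name. The 9 tested genes are at 1.04 for ragweed at 24 h and 1.20 for PBS over time. The 44 other skeletal muscle genes are at 0.17 and 0.26, and the heart markers at -0.20 and 0.84.

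Across probe sets, Pearson's r between the samples of a pair was 0.947 to 0.96 on first-version A and 0.781 to 0.927 on version 2 C. The median standard error of a difference was 0.23 on first-version A and 0.45 on version 2 C, so the Ckm values are the less precise. Over all 25250 probe sets, 53 were called higher and 5 lower for ragweed at 24 h, and 47 higher and 24 lower between the PBS groups. A deposited ragweed 24 h array without a replicate letter held the values of sample 1a, each 2.63 times smaller, and was not used, which leaves 46 distinct arrays of 47.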

How the data were processed

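Per the labels, total RNA of mouse lung was hybridized to Affymetrix murine arrays A, B and C in a first version and in version 2. The deposited files give 1 intensity per probe set on a linear scale; how the authors summarized probes is not stated in the labels or file headers. The deposited first-version A arrays had trimmed means of 222.7 to 373.5 in the PBS samples and 792.3 to 793.7 in the ragweed samples. Deposited scale and agent thus cannot be told apart on this array, and the part of that scale in the ragweed differences was not tested. First-version A arrays were brought to a trimmed mean of 800 (2% cut at each end) and then quantile normalized on the log2 scale. Version 2 B and C were used as deposited, because their trimmed means were already alike.

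The main tables were first-version A (the 9977 probe sets also on version 2 A), version 2 B and version 2 C, without control probe sets. Values under the 40th percentile of a table (291.6, 356.4 and 244.7) were set to it, and a probe set was tested if above it on at least 2 arrays. Limma 3.58.1 (R 4.3.3; lmFit and eBayes with a trend) was fitted on log2 intensity with 1 mean for each of the 4 groups, which left 4 residual degrees of freedom. P-values were adjusted over the 3 tables together, and called means an adjusted p-value under 0.05. The script was tested on simulated data. The number of arrays limits the precision. Version 2 A, first-version B and first-version C were fitted the same way as the other array version.

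All 10 genes are named, with every probe set. In counts, 1 probe set stands for a gene: a tested one, A before B before C, then the brightest. The 8 genes most like the members and up to 4 genes of each list with the largest PBS difference were named by rule. The members and lists were chosen with earlier results of these data known. Alternatives tried were the other array version, floors, filters, normalization, the trend, the adjustment, all first-version A probe sets, a replicate block, each sample left out and other PBS references. Gene names came from GEO's platform annotation, in which 53043 of 74521 probe sets have 1 symbol, 1654 several and 19824 none.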

Additional observations from a re-analysis of the deposited data

Results flagged for a closer look

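The ragweed effect on Acta1 (100381_at) differed between the times: ragweed minus PBS was 1.64 at 24 h and -0.68 at 72 h, a difference of -2.31 ± 0.18 on the log2 scale (adjusted p = 0.00556, limma interaction contrast). Both samples of the ragweed group lay above both PBS samples at 24 h and below both at 72 h. The PBS samples themselves moved by 1.94 between the times, and the ragweed samples by -0.38.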

How the results depend on the processing

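For single genes, 8 of 350 differences recomputed with 1 sample left out turned sign. Under other settings, 460 of 493 kept their direction and their side of the threshold. Apart from those of Acta1 none was called in the main fit, so a kept side of the threshold says little about the other genes. A main difference of exactly 0, as for Tnni2 at 24 h, was counted as kept. The count of called genes held in 48 of 59 other settings. At 24 h it went from 1 to 0 on the other array version, where 2 of the genes could be tested, and against PBS of both times or of the other time. At 72 h it went from 0 to 1 with a filter of at least 4 arrays or with adjustment within each table, and to 2 against PBS of the other time. Between the PBS groups it went from 1 to 3 with that filter or that adjustment (Acta1, Mb and Tnnt3) and to 2 without the trend. The difference between the effects went from 1 to 0 on the other array version and without the trend (Acta1 adjusted p = 0.0589). With 1 sample left out, the count ranged from 0 to 1 between the PBS groups and from 0 to 1 for the difference between the effects. The cause of these moves was not tested, except that fewer genes can be tested on the other array version.

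With the replicate code as a replicate block, the counts stayed at 1 for ragweed at 24 h and 0 at 72 h. They stayed at 1 for PBS over time, 0 for ragweed over time and 1 for the difference between the effects. Differences between 1a and 1b correlated from -0.08 to 0.04 between groups, so no pairing by code was seen across probe sets. Such a correlation cannot show a pairing that touches few genes, and the labels do not say what the codes mean.

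These differences turned sign. On the other array version, Tnnt3, read there through another probe set, was -0.35 at 24 h, 0.32 between the ragweed groups and 0.10 for the difference between the effects, and Mb was -0.84 at 72 h. Against PBS of both times, Mylpf was -0.087 and Mybph -0.069 at 24 h, and Acta1 0.29, Atp2a1 0.12 Tnnt3 0.0096 and Tnni2 0.011 at 72 h. Against PBS of the other time, the 24 h values were -0.30 for Acta1, -0.60 for Mylpf, -0.15 for Mb, -0.40 for Mybph, -0.56 for Tnnt3 and -0.82 for Ckm. The 72 h values were then 1.26 for Acta1, 0.33 for Mylpf, 0.72 for Atp2a1, 0.20 for Mybph, 0.81 for Tnnt3, 0.80 for Ckm and 0.023 for Tnni2. With 1 sample left out, Mb at 72 h ranged from -0.056 (without PBS 72 h sample 1b) to 0.42. Tnni2, at the floor on most arrays, ranged from -0.024 to 0.022 (without ragweed 72 h sample 1a) both at 72 h and for the difference between the effects. Ryr1 between the PBS groups ranged from -0.0039 (without PBS 72 h sample 1a) to 0.47. Between the ragweed groups, Mylpf ranged from -0.21 to 0.014 (without ragweed 72 h sample 1a; 0.0030 without ragweed 24 h sample 1a), and Mybph reached 0.17 without ragweed 24 h sample 1a and 0.025 without ragweed 72 h sample 1b. The 24 h differences of Mylpf (0.17 to 0.69), Mybph (0.023 to 0.50) and Ryr1 (0.037 to 0.60), none of them called, also moved by over 1.5 times with 1 sample left out. The signal over background limits Tnni2, Ryr1 and several second probe sets, whose values lay near or under the floor.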
